A study of Rattus norvegicus with 16 samples.

Results

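The heavy chains of sarcomeric myosin were followed in messenger RNA of rat tibialis anterior, a mostly fast muscle of the lower leg. The set was chosen by symbol: the adult fast chains Myh1, Myh2 and Myh4, the slow chain Myh7, the embryonic chain Myh3, the perinatal chain Myh8, and the heart and specialised chains Myh6 and Myh7b. Of these 8 genes, 7 had a row among the 31141 rows of the deposited table, and no row carried the symbol Myh1. All 7 passed the filter on low values, which asked for 1 FPKM or more (fragments per kilobase of gene, per sequencing depth) in 4 or more libraries and left 12119 genes.

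The 16 libraries came from Wistar-Imamichi rats in 3 groups. WT_ND has 4 libraries from wild-type rats on a normal diet. DMD_ND has 6 from rats of genotype Dmd, mutant for dystrophin, on the same diet, and DMD_KD has 6 from rats of that genotype fed a diet named MCTKD, which the labels do not spell out. Feeding ran from weaning until 9 months in each group. The labels give neither the Dmd allele nor the sex, no wild-type group received MCTKD, and they do not tie each library to an animal of its own, so p-values measure only the spread between these libraries.

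A myosin heavy chain is the motor of the thick filament: its head splits ATP and pulls on actin, and its tail assembles into the filament shaft. Adult fibres are typed by the chain they make, from slow oxidative fibres with Myh7 through fast fibres with Myh2 and Myh1 to the fastest glycolytic fibres with Myh4. Myh3 and Myh8 serve developing muscle, are replaced by the adult chains around and after birth, and return for a time in fibres that regenerate after injury. The fast and developmental genes lie side by side in 1 cluster, with Myh6 and Myh7 as a separate neighbouring pair.

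Libraries held 17125084 to 28116085 reads assigned to genes. Dmd, which encodes dystrophin and checks the labels, averaged 7.32 ± 3.32 FPKM in WT_ND (SD, n = 4), 1.76 ± 0.208 in DMD_ND (n = 6) and 1.36 ± 0.545 in DMD_KD (n = 6), with no overlap between wild-type and mutant libraries. Mitochondrially encoded genes took 19.7% to 25.1% of the assigned reads in WT_ND, 11.9% to 14.0% in DMD_ND and 14.4% to 17.0% in DMD_KD. The deposited FPKM are already scaled between libraries by size factors. Under TPM, which sets every library to the same total, the median gene shifts by 0.82 on the log2 scale for DMD_ND against WT_ND and by 0.56 for DMD_KD against WT_ND, so each direction below is relative to the deposited scaling unless stated. Differences in level are of log2(FPKM + 1), so those of low genes are understated. In bulk tissue, fewer fibres of a type and less RNA per fibre cannot be told apart.

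The start regions of the adult fast genes are shown because these genes carry most of the myosin heavy chain RNA of this muscle and because Myh1 has no row of its own. They are the 250 bases before the RefSeq start on build GRCr8, which is not the build of the deposited table. The embryonic gene is added for comparison. Capitals mark a run of 20 bases shared by Myh1, Myh2 and Myh4, and TATAAA on the gene's own strand.
Myh1 (chr10:52384662-52384911, + strand): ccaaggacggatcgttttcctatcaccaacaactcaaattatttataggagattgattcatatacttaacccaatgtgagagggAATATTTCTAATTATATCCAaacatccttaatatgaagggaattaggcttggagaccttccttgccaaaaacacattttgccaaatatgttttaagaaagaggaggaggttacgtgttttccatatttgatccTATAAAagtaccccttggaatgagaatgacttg
Myh2 (chr10:52355489-52355738, + strand): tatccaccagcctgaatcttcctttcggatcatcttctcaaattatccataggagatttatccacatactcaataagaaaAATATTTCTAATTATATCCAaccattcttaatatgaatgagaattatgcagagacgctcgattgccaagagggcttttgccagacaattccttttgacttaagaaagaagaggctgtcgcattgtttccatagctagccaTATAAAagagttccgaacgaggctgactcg
Myh4 (chr10:52421898-52422147, + strand): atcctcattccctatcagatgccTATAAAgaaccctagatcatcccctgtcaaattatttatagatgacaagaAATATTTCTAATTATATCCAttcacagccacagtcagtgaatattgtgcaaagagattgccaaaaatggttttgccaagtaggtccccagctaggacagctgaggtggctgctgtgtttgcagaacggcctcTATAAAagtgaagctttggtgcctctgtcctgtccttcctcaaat
Myh3 (chr10:52268935-52269184, + strand): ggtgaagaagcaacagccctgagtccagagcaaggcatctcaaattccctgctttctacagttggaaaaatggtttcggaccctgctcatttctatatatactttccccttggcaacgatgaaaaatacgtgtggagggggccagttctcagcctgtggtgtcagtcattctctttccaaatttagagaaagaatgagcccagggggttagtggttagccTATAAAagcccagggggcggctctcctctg

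The shared run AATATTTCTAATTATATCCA was the only stretch of at least 10 bases common to the 3 adult fast windows. It was held by 5 of the 33469 RefSeq promoters (0.0149%), the others being entries of LOC102555216. All 8 members had a promoter of 300 bases, from 250 before to 50 after the start, in which 6 motifs were searched on both strands: TATAAA, held by 14.2% of all promoters, the E-box CANNTG (72.1%), the MCAT element CATTCC (14.2%), TCAGGTT (4.03%), the MEF2 consensus (3.29%) and the CArG box (1.64%). TATAAA was found in Myh1, Myh2, Myh4 and Myh3, the MEF2 consensus in Myh1 and Myh4, where it overlaps a TATAAA on the opposite strand, and the CArG box in Myh4 alone among the 8. Myh4 and Myh7 held 3 and 4 E-boxes, and Myh8, whose level differed most between DMD_ND and WT_ND among the measured members, held none of the 6 motifs. A match is a description of letters, not of a bound site.

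The row named Myh4 needs a word before its values. On build mRatBN7.2 it lies at chr10:51885913-51946295 on the + strand and spans 60383 bases, against 21668 to 29723 for the other 6 members. Its exon length of 12070 bases is 1.998 times the median of theirs, 6041.5. RefSeq orders the cluster as Myh3, Myh2, Myh1, Myh4, Myh8 and Myh13, and the row starts just after the end of Myh2 (chr10:51856738-51883236) and ends before Myh8 (chr10:51963510-51993232). The order comes from another build, GRCr8, but on these measurements reads of Myh1 and Myh4 could not be told apart in the row, and it is called the Myh4 row throughout. Since FPKM divides by length, the row's level is understated if its reads come from 1 gene's length at a time. How reads that match several of these alike genes were counted was not stated in the labels or notes.

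Myh2 fell further in dystrophic muscle than the Myh4 row, while Myh1 could not be ranked because it has no row of its own. The FPKM of Myh2 were 1313, 969, 986 and 914 in the 4 wild-type libraries, from 189 to 231 in DMD_ND with a median of 197, and from 174 to 291 in DMD_KD with a median of 258. Every mutant library lay far below every wild-type one, and the DMD_KD libraries spread more widely than DMD_ND around similar values. In DMD_ND against WT_ND the log2 difference was -2.35 (SE 0.16, limma adjusted p = 2.46e-09), a 5.11-fold lower level, and under TPM scaling it was -1.34 (adjusted p = 1.16e-06).

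The Myh4 row was the most abundant member in every library. Its FPKM were 6235, 4095, 5589 and 5212 in WT_ND, 1288 to 2579 in DMD_ND (median 2508) and 2328 to 3655 in DMD_KD (median 2797). The wild-type values did not overlap either mutant group, and 1 DMD_ND library, replicate 9, lay at 1288 while the other 5 lay between 2165 and 2579. The row was 2.36-fold lower in DMD_ND than in WT_ND (log2 -1.24, SE 0.21, limma adjusted p = 7.29e-05). That call depends on the scaling: under TPM the difference was -0.23 (adjusted p = 0.215), and under TPM without the mitochondrial genes it was -0.59 (adjusted p = 0.00406).

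Myh7, the slow and cardiac beta chain at chr15:28446550-28468217 (- strand), was a minor member. Its FPKM were 207, 187, 171 and 100 in WT_ND, 42.5 to 85.8 in DMD_ND (median 67.1) and 37.1 to 64.9 in DMD_KD (median 57.8). No mutant library reached the lowest wild-type one, although that library, WT_ND replicate 9, was well below the other wild-type values. The difference of DMD_ND from WT_ND was -1.36 (SE 0.23, limma adjusted p = 6.68e-05), or 2.57-fold lower, and -0.36 under TPM scaling (adjusted p = 0.129).

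The developmental chains moved the other way. Myh3, the embryonic chain at chr10:51770177-51793992, was at 8.75, 6.21, 6.96 and 7.37 FPKM in WT_ND, 25.6 to 48.1 in DMD_ND (median 38.9) and 25.5 to 42.2 in DMD_KD (median 33.1). All 12 mutant libraries exceeded all 4 wild-type ones, and both mutant groups covered much the same range. Myh3 was 4.76-fold higher in DMD_ND (log2 2.25, SE 0.16, limma adjusted p = 5.17e-09), and 3.28 on the log2 scale under TPM.

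Myh8, the perinatal chain at chr10:51963510-51993232, was below Myh3 in wild-type muscle and near it in mutant muscle. Its FPKM were 5.59, 3.47, 3.92 and 4.10 in WT_ND, 34.2 to 45.2 in DMD_ND (median 40.6) and 29.8 to 46.4 in DMD_KD (median 41.5). No mutant library came near the wild-type range. The log2 difference of DMD_ND from WT_ND was 2.95 (SE 0.14, limma adjusted p = 5.59e-11) and 4.001 under TPM scaling.

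Myh6 is the alpha chain of heart muscle (chr15:28417616-28441720), and Myh7b a chain found in some specialised muscles and in heart (chr3:144098190-144122084). Both were low in every library, near the filter's 1 FPKM. Myh6 lay between 0.260 and 1.40 FPKM over the 16 libraries, from 31 to 228 reads, and Myh7b between 0.957 and 3.77, from 91 to 419 reads. Their groups overlapped throughout. The differences of DMD_ND from WT_ND were -0.12 (limma adjusted p = 0.604; 95% interval -0.55 to 0.30) for Myh6 and -0.07 (adjusted p = 0.755; -0.43 to 0.30) for Myh7b. Under TPM scaling Myh7b turned to 0.70 (limma adjusted p = 0.0335), below the median gene at 0.82. Of the heart muscle markers Nppa, Nppb, Myl7, Tnni3 and Ryr2, the first 4 were at 0 in every wild-type library, and the summed level of all 5 reached at most 0.632 FPKM in any library.

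**Figure D1:**
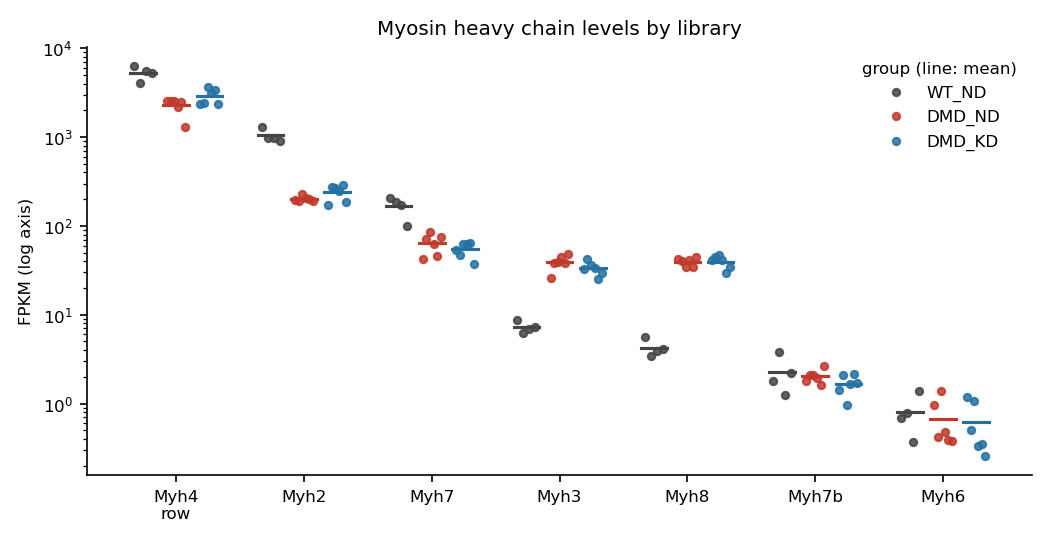
FPKM of the 7 measured myosin heavy chains in each of the 16 libraries, on a log axis; points are libraries, lines are group means, and colours are WT_ND, DMD_ND and DMD_KD. Wild-type points lie above the mutant ones for the Myh4 row, Myh2 and Myh7, below them for Myh3 and Myh8, and among them for Myh7b and Myh6.

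Counted together for DMD_ND against WT_ND, 2 of the 7 members rose, where 31.5% of all genes tested did, and 3 fell, where 34.3% did. The FPKM of the groups did not overlap for 5 of the 7, against 55.1% of all genes. Calls were thus common in this comparison, and the median difference of all genes was -0.04. Under TPM scaling 9943 of 14028 genes tested were higher and 741 lower (median 0.82), in place of 3815 and 4152 of 12119. The members called were then Myh3, Myh8 and Myh7b higher and Myh2 lower, with Myh7b at 0.70 below the median gene. Leaving out DMD_ND replicate 9 and DMD_KD replicate 3, the mutant libraries with the lowest and highest Myh4 row, left 2 members higher and 3 lower. This exclusion was not planned. The FPKM of all genes in DMD_KD replicate 3 summed to 727999, against 398180 to 469461 in the other DMD_KD libraries.

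The distances between the minor members differed between genotypes more than their order. The order Myh4 row, Myh2, Myh7, Myh3, Myh8, Myh7b and Myh6 was the commonest in both normal-diet groups. It held in 3 WT_ND and 4 DMD_ND libraries, while Myh8 stood above Myh3 in all 6 DMD_KD libraries. The Myh4 row stood above Myh2, and Myh2 above Myh7, in all 16 libraries, with ranges that did not touch within a group. In WT_ND, Myh3 came next after Myh7, clear of Myh8, while Myh8 and Myh7b overlapped, as did Myh7b and Myh6. In both mutant groups Myh3 and Myh8 overlapped each other and the lower end of Myh7, and stood well clear of Myh7b. Among all genes of a library, the Myh4 row ranked between 18 and 28 in every group, Myh2 moved from rank 52 to 70 in WT_ND to rank 181 to 205 in DMD_ND, and Myh8 from rank 5584 to 7088 to rank 851 to 1271.

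The ratio of the developmental chains also differed. Myh8 over Myh3 was 0.638, 0.559, 0.563 and 0.557 in WT_ND, 0.875 to 1.65 in DMD_ND (median 0.926) and 1.07 to 1.27 in DMD_KD (median 1.21). Myh8 exceeded Myh3 in 0 of 4 wild-type, 2 of 6 DMD_ND and 6 of 6 DMD_KD libraries. The wild-type ratios lay below all 12 mutant ones, and the DMD_KD ratios fell inside the DMD_ND range only through DMD_ND replicate 11 at 1.65. The other 5 DMD_ND ratios, 0.875 to 1.04, lay below every DMD_KD ratio. The ratio was noticed in these data and is given as a description with no test. It does not depend on the scaling between libraries.

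**Figure D2:**
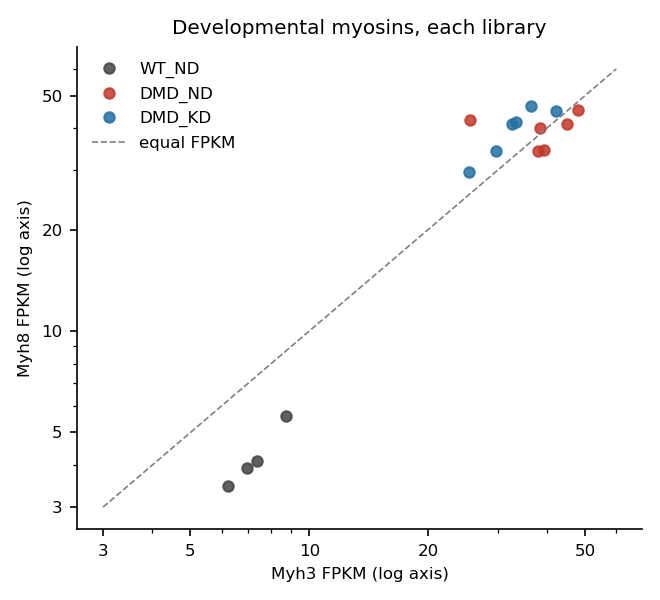
Myh8 FPKM against Myh3 FPKM, both on log axes, 1 point per library coloured by group; the dashed line marks equal levels. The 4 WT_ND points sit at the lower left under the line, and the 12 mutant points sit at the upper right on both sides of it, with all 6 DMD_KD points above it.

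As a share of the summed FPKM of the 7 members, Myh2 was smaller and the developmental chains larger in mutant muscle, and the Myh4 row stayed dominant. The sum itself was 6509 ± 1045 FPKM in WT_ND (SD, n = 4), 2617 ± 496 in DMD_ND (n = 6) and 3260 ± 632 in DMD_KD (n = 6). The members took 4.34% to 5.62% of all assigned reads in WT_ND, 2.50% to 4.06% in DMD_ND and 3.43% to 4.69% in DMD_KD. The wild-type sums lay above every mutant sum, whereas the shares of reads of WT_ND and DMD_KD overlapped.

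Myh2 made up 16.9%, 18.4%, 14.6% and 14.7% of the sum in WT_ND, 6.48% to 11.7% in DMD_ND and 6.53% to 9.61% in DMD_KD. The wild-type shares were above all mutant ones. The Myh4 row held 77.8% to 83.5% in WT_ND, 78.0% to 89.3% in DMD_ND and 85.5% to 89.8% in DMD_KD, so DMD_KD was clear of the wild type, as were 5 of the 6 DMD_ND libraries (85.9% to 89.3%), all but replicate 9. Myh7 held 2.59 ± 0.794% (SD, n = 4), 2.59 ± 1.12% (n = 6) and 1.68 ± 0.209% (n = 6) in the same order, with overlapping ranges. Myh3 and Myh8 together made up 0.161% to 0.185% in WT_ND, 2.36% to 5.64% in DMD_ND and 1.45% to 3.08% in DMD_KD. The top DMD_ND value was again replicate 9, and the next was 3.42%.

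**Figure D3:**
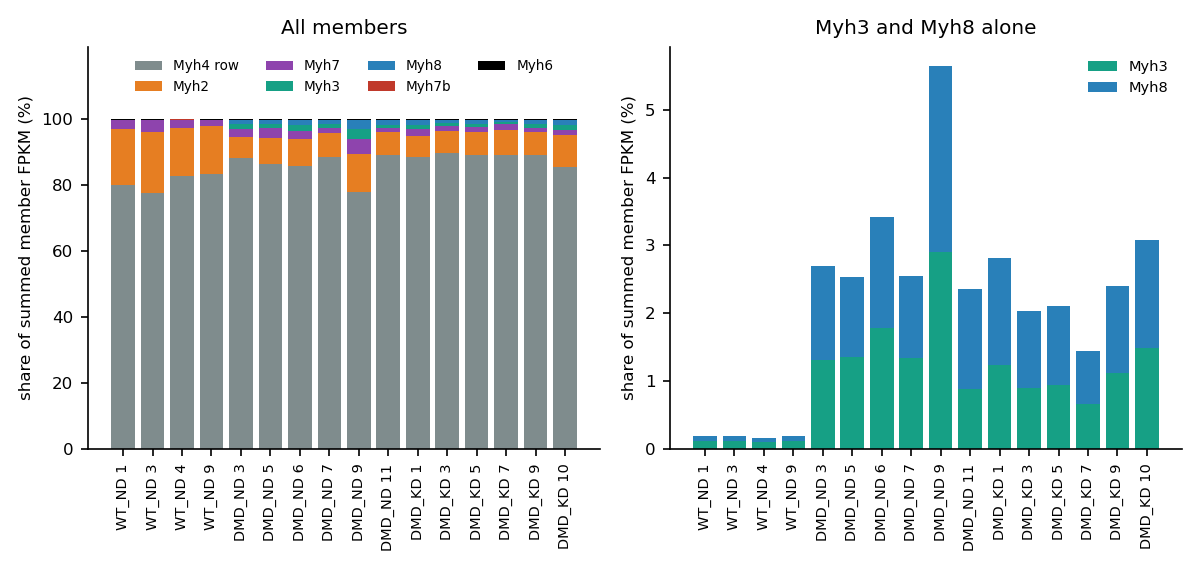
Share of each member in the library's summed member FPKM, in percent, 1 stacked bar per library; the left panel shows all 7 members and the right panel Myh3 and Myh8 alone on a wider scale. Myh2 takes 14.6% to 18.4% in the WT_ND bars and at most 11.7% in the mutant bars, and Myh3 with Myh8 reach 5.64% in DMD_ND replicate 9 against at most 0.185% in WT_ND.

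Relative to the library's own sum, tested over all genes, Myh2 was the only member to fall in DMD_ND against WT_ND (log2 -1.03, SE 0.18, limma adjusted p = 1.17e-05), where 1.47% of all genes did. The Myh4 row (0.09, adjusted p = 0.55; 95% interval -0.20 to 0.37) and Myh7 (-0.03, adjusted p = 0.897; -0.55 to 0.48) were not called. The Myh4 row made up 77.8% to 83.5% of the sum in WT_ND, so it had little room to rise relative to it. Myh3 (3.58), Myh8 (4.28), Myh6 (1.20) and Myh7b (1.26) were called higher, but so were 86.8% of all genes, and the median gene stood at 1.29 on this scale, the sum itself being lower in mutant muscle. Myh6 and Myh7b lay close to that median and Myh3 and Myh8 far above it. This fit adds 1 to a gene's FPKM but not to the sum, which distorts its values for low genes. The fitted fold was above the ratio of mean shares for Myh6 (2.30 against 1.95) and Myh7b (2.40 against 2.22). For Myh3 (11.9 against 14.2) and Myh8 (19.4 against 24.5) it was below that ratio. Within each library the Myh4 row over Myh2 gave 4.22 to 5.70 in WT_ND, 6.69 to 13.6 in DMD_ND and 8.90 to 13.8 in DMD_KD, with no overlap between wild-type and mutant ratios.

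The diet was compared within the mutant genotype, DMD_KD against DMD_ND. None of the 7 members was called, by level (0.00825% of all genes were) or relative to the sum (0% of all genes). By level none had an unadjusted p under 0.05 by limma, against 1727 (14.3%) of all genes. An exact rank-sum test called no gene here, its smallest p of 0.00216 having an adjusted p of 0.147. In the fit relative to the sum, Myh7 and Myh3 had unadjusted limma p of 0.0279 and 0.0228, each with an adjusted p of 0.186. Their log2 differences were -0.52 and -0.54, where the median gene stood at -0.33. How many of all genes had an unadjusted p under 0.05 in that fit was not counted. No member's groups were free of overlap, where 1.48% of all genes were.

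The intervals show how far the levels may differ. The log2 difference was 0.36 for the Myh4 row (95% interval -0.04 to 0.76, limma adjusted p = 0.381) and 0.22 for Myh2 (-0.08 to 0.52, adjusted p = 0.453). It was -0.20 for Myh7 (-0.64 to 0.23, adjusted p = 0.634) and -0.21 for Myh3 (-0.52 to 0.09, adjusted p = 0.469). Myh8, at 39.5 ± 4.41 FPKM (SD, n = 6) in DMD_ND and 39.7 ± 6.47 (n = 6) in DMD_KD, gave -0.0020 (-0.27 to 0.26, adjusted p = 0.995). For Myh6 it was -0.05 (-0.43 to 0.34) and for Myh7b -0.19 (-0.52 to 0.14). Under TPM scaling the difference of Myh2 was -0.05 (adjusted p = 0.813), and still no member was called.

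Mutant rats on MCTKD were also set against the wild type, a comparison that shares the WT_ND libraries with the first. Myh3 (2.04) and Myh8 (2.95) rose, where 27.3% of all genes did, and the Myh4 row (-0.88, limma adjusted p = 0.00205), Myh2 (-2.13) and Myh7 (-1.57) fell, where 31.1% did. The groups were free of overlap for 5 of the 7 members, against 37.2% of all genes. Under TPM scaling the Myh4 row was not called (-0.13, adjusted p = 0.494). Relative to the sum, Myh2 (-1.13) and Myh7 (-0.56) were called lower, against 1.26% of all genes, and Myh3, Myh8, Myh6 and Myh7b higher, against 78.2%. Myh6 and Myh7b were not called with a pseudocount of 0.1 (adjusted p = 0.252 and 0.114) or with a replicate block (0.0562 and 0.164). The Myh7 value had an adjusted p of 0.0448 and passed the threshold in the absence of DMD_KD replicate 1 or WT_ND replicate 9 but not when any of the other 8 libraries of the comparison was left out.

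**Figure D4:**
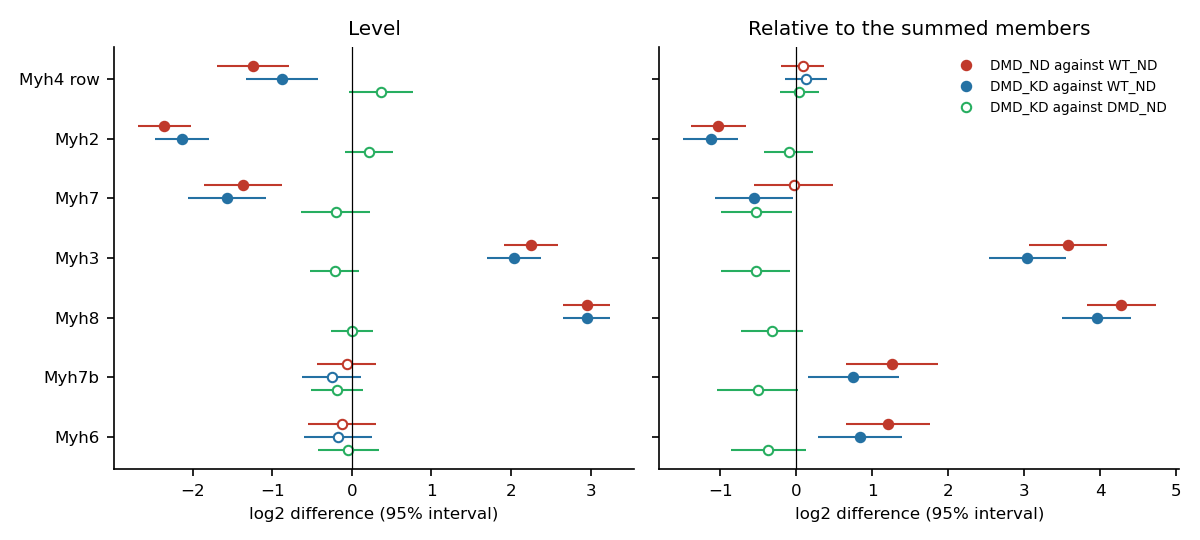
Log2 differences of the 7 members with 95% intervals in 3 comparisons, by level (left) and relative to the summed members (right); filled points passed an adjusted p of 0.05. By level the Myh4 row, Myh2 and Myh7 lie left of 0 and Myh3 and Myh8 right of it in both comparisons with WT_ND, and every DMD_KD against DMD_ND point is open.

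Genes expressed alongside these chains were taken from fixed lists by fibre type, called partners here, which hold light chains and thin filament genes and also genes of calcium handling and of the cell surface. Of 11 measured fast partners, 9 fell in DMD_ND against WT_ND and 2 were not called (median -1.17, all genes -0.04). Of all genes 34.3% fell and 31.5% rose in that comparison. Mylk2, the kinase of skeletal myosin light chain, averaged 805 ± 253 FPKM (SD, n = 4) in WT_ND and 228 ± 65.4 (n = 6) in DMD_ND. Mybpc2, fast myosin binding protein C, fell from 1771 ± 371 to 632 ± 180, the fast Z-disc actinin Actn3 from 5320.4 ± 1935 to 1535 ± 482, and the fast troponin T Tnnt3 from 5831 ± 1123 to 2593 ± 392.4. Under TPM scaling 2 fast partners were higher and 3 lower (median -0.15, all genes 0.82), where 9943 of 14028 genes were higher and 741 lower.

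Of 11 slow partners, 6 fell, 2 rose and 3 were not called (median -0.53), where 34.3% of all genes fell and 31.5% rose. Myl3, the slow light chain that sits on Myh7, fell from 718 ± 262 to 116 ± 18.9 FPKM, the slow binding protein Mybpc1 from 1376 ± 134 to 604 ± 99.9, and the slow calcium pump Atp2a2 from 90.4 ± 15.02 to 62.0 ± 6.22. Casq2, the cardiac-type calcium buffer, rose from 5.24 ± 1.29 to 63.8 ± 6.24. Under TPM scaling 7 slow partners were higher and 1 lower (median 0.48). With 9943 of 14028 genes higher there (median 0.82), the list's median stayed below that of all genes.

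Of 9 measured partners of embryonic and perinatal muscle, 7 rose and 2 were not called (median 2.78), where 31.5% of all genes rose. Under TPM scaling 8 were higher (median 3.87), where 9943 of 14028 genes were higher (median 0.82). The cell adhesion molecule Ncam1 rose from 0.854 ± 0.116 to 11.8 ± 2.03 FPKM and the cardiac and embryonic troponin T Tnnt2 from 0.590 ± 0.309 to 10.8 ± 2.76. Ankrd1, a stretch-responsive titin partner, rose from 7.22 ± 5.54 to 436 ± 111, and sarcolipin, Sln, which restrains the calcium pump, from 26.2 ± 5.14 to 646 ± 283. In DMD_KD against DMD_ND limma called no member of the fast, slow or embryonic list, where 0.00825% of all genes were called. An unadjusted p under 0.05 was found for 4 of 11, 0 of 11 and 4 of 9, against 14.3% of all genes.

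Of 14 tested genes that fold and order the thick filament, 8 were lower, 1 higher and 5 not called (median -0.70). Of all genes 34.3% were lower and 31.5% higher. Under TPM scaling 6 were higher and 2 lower (median 0.31), where 9943 of 14028 genes were higher (median 0.82). Hsp90ab1, a cytosolic chaperone of the Hsp90 family, went from 416 ± 53.2 to 184 ± 19.8 FPKM. Under TPM scaling 13 of the 32 tested regulators of myosin genes were higher and 6 lower (median 0.22, again below that of all genes). On the deposited scaling 19 were lower, 6 higher and 7 not called (median -0.73). The 4 with the smallest p were lower: Sox6, which represses slow genes in fast fibres, went from 9.79 ± 1.76 to 2.23 ± 0.468 FPKM, the nuclear receptor Esrrg from 4.17 ± 0.433 to 0.863 ± 0.216, the calcineurin target Nfatc3 from 10.4 ± 1.23 to 3.55 ± 0.743, and the Tead cofactor Vgll2 from 68.1 ± 12.2 to 19.7 ± 2.72. Of the 4 non-sarcomeric or smooth muscle heavy chains tested, 2 were higher in DMD_ND, Myh9 (24.1 ± 2.46 against 12.6 ± 1.37 FPKM) and the smooth muscle chain Myh11 (4.24 to 8.88 against 3.11 to 4.95), and Myh14 was lower (10.7 ± 1.71 against 17.6 ± 4.32). Under TPM scaling 3 of these heavy chains were higher and 0 lower (median 1.14, all genes 0.82).

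**Figure D5:**
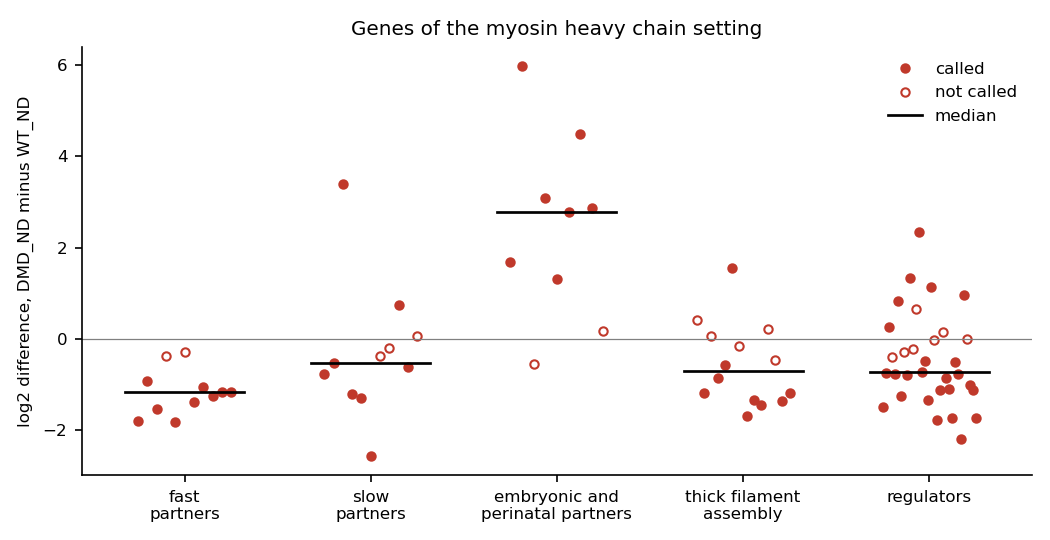
Log2 difference of DMD_ND minus WT_ND for each tested gene of 5 lists, 1 point per gene, filled where called, with the list's median as a line. The fast partners lie below 0 with a median of -1.17 and the embryonic and perinatal partners mostly above it with a median of 2.78, on the deposited scaling.

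Markers of other cells moved with the genotype, beside every member result above. In DMD_ND against WT_ND, 31.5% of all genes were higher and 34.3% lower. All 5 macrophage markers were higher in DMD_ND (summed 121 to 204 FPKM against 9.28 to 19.7 in WT_ND; Tyrobp and C1qa had the smallest p), as were all 5 fibro-adipogenic markers (1228 to 1970 against 80.8 to 208; Col1a1 and Col3a1) and all 3 fat cell markers (26.8 to 139 against 3.17 to 19.1; Adipoq and Plin1). The 4 general muscle fibre markers were lower (15944 to 28264 against 45252 to 86824; Tcap and Mb). Of 6 satellite cell and myoblast markers 3 were higher and 1 lower (summed 108 to 205 against 39.5 to 56.2), with the fusion factor Mymk from 0.452 ± 0.458 to 36.4 ± 13.5 FPKM and Myf5 from 1.01 ± 0.421 to 4.14 ± 1.13. All 4 smooth muscle markers were higher (Acta2 and Tagln first), and 2 of 4 endothelial markers were lower (Cdh5 and Kdr). Of the fast fibre markers 4 of 6 were lower (Actn3 and Tnnt3 first), and of the slow fibre markers 3 of 6 were lower and 1 higher (Myl3 and Myl2 first). Under TPM scaling 9943 of 14028 genes were higher and 741 lower (median 0.82). The endothelial markers went to 2 higher and 0 lower, the fast fibre markers to 2 higher and 1 lower, and the slow fibre markers to 3 higher and 1 lower. Their medians of 0.64, -0.09 and 0.52 stayed below that of all genes. All 6 satellite cell and myoblast markers were higher under TPM scaling, and 3 of 4 muscle fibre markers were lower. The macrophage, fibro-adipogenic, fat cell and smooth muscle counts were the same under both scalings. The part of any of these in the member results was not tested. None of these marker lists had a call by limma in DMD_KD against DMD_ND, where 0.00825% of all genes were called. Between 0 and 2 genes of each had an unadjusted p under 0.05 there, against 14.3% of all genes. Without DMD_ND replicate 9 and DMD_KD replicate 3, 5 satellite cell and myoblast markers and 2 thick filament genes were higher in DMD_ND than in WT_ND, and the other lists moved by 1 call or less in each direction.

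For each member, the 3 genes that varied most like it within groups were picked from 5564 or 5565 candidates. The highest of so many correlations over 16 libraries are large by selection alone, and no test was made. Likeness is the Pearson correlation of log2(FPKM + 1) after each group's mean was removed, over 16 libraries and protein-coding genes of at least 5 FPKM on average, and is a description only, since the values share libraries and scaling. The Myh4 row varied most like Myom2 (0.97), an M-band protein of fast fibres, then Dnaja3 (0.94) and Fbp2 (0.94), the muscle fructose bisphosphatase. Myh7 varied most like the slow troponin T Tnnt1 (0.90), the slow calcium pump Atp2a2 (0.90) and the slow troponin C Tnnc1 (0.86).

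Myh3 was closest to Chrnd (0.80), a subunit of the muscle acetylcholine receptor, then Cracr2b (0.79) and Maged1 (0.79). For Myh8 the closest were Uck1 (0.78), Thap11 (0.76) and Mybph (0.75), a myosin binding protein. With the group means left in, their correlations with Myh8 were 0.65, -0.40 and -0.47. For Myh2 the closest were Ak3 (0.74), Tmem82 (0.72) and the lipid droplet protein Plin5 (0.72). Myh7b was closest to As3mt (0.94), Stag2 (0.90) and Tmem106b (0.88), and Myh6 to Glb1 (0.80), Col5a1 (0.78) and Cd300le (0.75). Among the members themselves, Myh3 and Myh8 had the highest such correlation (0.58), while the Myh4 row and Myh7 were near 0 (0.07).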

How the data were processed

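Poly-A RNA of frozen tibialis anterior was made into libraries from random hexamers, per the labels' protocols, which do not say whether strand was kept. The tools were HISAT2 2.0.5 and featureCounts 1.5.0-p3 and the build was mRatBN7.2, per the submitters' processing notes. Annotation release, strand setting and the treatment of reads with several matches were not given in the sources used here. The authors deposited FPKM per gene. Each value times gene length and the library size it implies was a whole number of reads (100% within 0.05), and those library sizes followed median-of-ratios size factors, so the deposited FPKM are scaled between libraries. Intervals and tests cover only the spread between libraries.

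Log2(FPKM + 1) of genes at 1 FPKM or more in 4 or more libraries was fitted with limma 3.58.1 (R 4.3.3; 3 group means over 16 libraries, eBayes with trend and robust). Two-sided p-values were Benjamini-Hochberg adjusted over 12119 genes, and genes were called under 0.05. A second fit subtracted each library's log2 sum of member FPKM. The test was tried on simulated data. Alternatives were pseudocounts, filters, TPM scaling, library weights, a rank-sum test, a replicate block and leaving out libraries. The members and lists were chosen with earlier results of these data known. Named genes were all members, Dmd, the 2 list genes with the smallest p for DMD_ND against WT_ND (4 for fast, slow and embryonic partners and regulators), list genes at 0 in a group, and the 3 nearest genes per member. Some genes that this rule selects are not reported here. Red blood cell markers had no row. Promoters are from RefSeq (GRCr8), all 8 members matched by symbol.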

Additional observations from a re-analysis of the deposited data

Results flagged for a closer look

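Of 24 sets of values examined (7 members and their sum in 3 groups), 2 had a library set far apart from the others of its group, where chance alone gives about 1 in 20. Both are DMD_ND replicate 9. Its Myh4 row was at 1288 FPKM against 2165 to 2579 in the other 5 libraries, a gap of 0.680 of the group's range where 0.625 is the limit for 6 libraries. Its summed member FPKM was 1653 against 2521 to 2921, a gap of 0.685 of the range, and follows from the same row, which makes up most of the sum. The library also held the highest Myh3 (48.1 FPKM) and Myh8 (45.2 FPKM) of its group.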

How the results depend on the processing

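Of 799 values of single members under other settings, 778 kept their side of the threshold, 24 of them with a changed sign where neither value was called, 19 lost the call, 1 gained it and 1 reversed, and of 115 counts of members 113 stayed within 1.5 times. The counts of called members by level ran from 4 to 5 for DMD_ND against WT_ND, from 4 to 6 for DMD_KD against WT_ND, and stayed at 0 for DMD_KD against DMD_ND. TPM scaling reversed Myh7b in DMD_ND against WT_ND (0.70, limma adjusted p = 0.0335), where the median gene stood at 0.82 under that scaling. It also removed the calls of the Myh4 row (-0.23, and -0.13 for DMD_KD against WT_ND) and Myh7 (-0.36). The cause was not tested. For DMD_KD against WT_ND relative to the sum, 6 members were called, but 3 with a pseudocount of 0.1, when Myh7, Myh6 and Myh7b were lost, and 3 with the replicate block; the cause was not tested. In that comparison Myh7 also lost its call in 8 of 10 fits that left out 1 library, and Myh7b without WT_ND replicate 1 or 4. Library weights added Myh6 for DMD_KD against WT_ND by level (-0.52, adjusted p = 0.0347). Whether the replicate numbers pair the samples could not be decided. Over 9 same-numbered pairs the correlation of deviations ran from -0.66 to 0.41, and these were not set against pairs of different numbers. With the Myh4 row's FPKM times 2, chosen after seeing the data, Myh2 made up 8.92%, 4.33% and 3.93% of the sum in WT_ND, DMD_ND and DMD_KD, and Myh3 with Myh8 0.0985%, 1.73% and 1.23%; shares of reads were nearly the same (8.93%, 4.33% and 3.93% for Myh2). Depth limits Myh6 above all, at 31 to 228 reads.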

Other observations

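Inside the myosin gene cluster, between Myh3 and Myh2 and on the opposite strand, lies a row without a gene symbol (chr10:51799455-51807415, build mRatBN7.2, - strand), which was picked after its values were seen. It averaged 36.3 ± 8.61 FPKM in WT_ND (SD, n = 4), 7.62 ± 3.40 in DMD_ND (n = 6) and 12.7 ± 4.78 in DMD_KD (n = 6). The log2 difference was -2.18 (SE 0.30, limma adjusted p = 5.87e-06) for DMD_ND against WT_ND and 0.69 (SE 0.26, adjusted p = 0.266) for DMD_KD against DMD_ND. Whether the counting used strand was not stated in the labels or notes. A row further along the cluster that the deposited table describes as myosin-13, ENSRNOG00000067378 (chr10:52009425-52068951), stayed between 0.710 and 2.95 FPKM in all 16 libraries and was not called in any of the 3 comparisons.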
